A study of Mus musculus with 14 samples.

Results

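Messenger RNAs of 8 genes for digestive proteases of the pancreas were followed across 7 mouse tissues. They encode the chymotrypsinogens Ctrb1 and Ctrl, the trypsinogens Prss2 and Try5, the proelastases Cela1 and Cela2a, and the procarboxypeptidases Cpa1 and Cpb1. The genes were chosen by name, and they were 8 of 22221 genes with counts. A gene was a transcript cluster of the deposited assignment, and its count was the sum of its 20-base signature tags with an assignment code from 1 to 4, read here as tags on the forward strand of a transcript. The cluster of Try5 is titled with a RIKEN clone name that RefSeq lists as a synonym of Try5. The cluster called Cela2a here is titled chymotrypsin C (caldecrin) but holds the Cela2a accession, so that Cela2a and its neighbour in name, Ctrc, cannot be told apart.

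The tissues were pancreas, stomach, parotid gland, bone marrow, liver, hippocampus and whole spinal cord of C57BL6 mice. Each tissue gave 1 library labelled male and 1 labelled female, with the liver taken from the left lobe in the male and the right lobe in the female. No mutation or treatment is given in the labels, and neither the age of the mice nor the number of animals behind a library is given there. The p-values below therefore measure the spread between these libraries, which may be technical. Levels are counts scaled to a library of 1000000 (CPM) from the counts assigned to genes, of which the libraries held 1922511 to 3460794. The counts are of tags at restriction sites, not of reads spread along a transcript, so no length was divided out, and orders between genes are orders of these tag counts. The pancreas libraries were nearly free of gastric gland markers, whose 10 genes summed to 1.13 CPM in male and 9.04 CPM in female pancreas, with 9 and 8 of the 10 at 0 counts. They were not free of the 5 parotid acinar markers, which summed to 2089 and 1611 CPM in male and female pancreas. Most of that was the amylase gene Amy1, at 1490 to 2086 CPM, and Bpifa2 had 3.39 to 79.2 CPM. The source of these counts was not tested. The 7 islet markers summed to 147 and 225 CPM in the same libraries, and the insulin genes among them reached at most 1.89 CPM. Reads were scaled for testing with TMM factors, which were 0.147 and 0.183 in male and female pancreas and 0.557 to 2.50 elsewhere.

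Acinar cells of the pancreas pack these proteases into granules as inactive zymogens and release them into the gut. There enteropeptidase activates trypsinogen, and trypsin then activates the other zymogens. Trypsins cut proteins after lysine and arginine, chymotrypsins after large hydrophobic residues and elastases after small ones. Carboxypeptidases are zinc enzymes that remove residues from the cut ends: carboxypeptidase A takes aromatic and aliphatic residues and carboxypeptidase B takes lysine and arginine. In acinar cells the genes are driven by a shared set of transcription factors, with the PTF1 complex among them.

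The 8 leading tags are shown because nearly every count of a gene below is a count of its leading tag. In the pancreas libraries the leading tag made up 95.7% to 99.2% of each gene's forward counts. Capitals mark the DpnII site at which the cDNA was cut, and each tag is written 5′ to 3′.
Ctrb1: GATCttggaagccaactaag
Ctrl: GATCcgttccccatctcaat
Prss2: GATCtgtgttggcttcctgg
Try5: GATCtgtgttggcttcctag
Cela1: GATCatggcaccacacctgt
Cela2a: GATCaactcggtgatggcaa
Cpa1: GATCatccccacagcggagg
Cpb1: GATCcgccaaacctgtgagg
The tags of Prss2 and Try5 differ at a single base, described as G19A with positions counted from the 5′ end and Prss2 given first.

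The 8 genes together took 47.0% of the gene counts of male pancreas (exact 95% interval 46.9% to 47.1%) and 38.2% of those of female pancreas (38.1% to 38.2%). Such intervals cover counting error only. In stomach the same 8 genes took 0.349% of the counts in the male (0.341% to 0.358%) and 0.308% in the female (0.300% to 0.315%). In the remaining 10 libraries their sum lay between 4.21 CPM in female hippocampus and 46.9 CPM in male spinal cord. In each pancreas library 6 of the 10 most counted genes were among the 8.

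Ctrb1, chymotrypsinogen B, had rank 2 of all genes in either pancreas library, after the amylase gene Amy2a. It had 172190 CPM in male and 120205 CPM in female pancreas, against 709 and 606 CPM in male and female stomach. The other 10 libraries ran from 0 to 12.4 CPM. Ctrl, a chymotrypsin-like protease, had 27312 and 23302 CPM in male and female pancreas, against 352 and 353 CPM in male and female stomach. Its other 10 libraries ran from 0.302 to 11.95 CPM, and none of them was at 0. The pancreas values of the chymotrypsinogens did not overlap with the stomach values, and the stomach values did not overlap with those of any other tissue.

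Prss2, a trypsinogen, had 109415 and 85636 CPM in male and female pancreas, against 473 and 737 CPM in male and female stomach, and 0 to 7.17 CPM elsewhere. Try5, a further trypsinogen, had 71163 and 65015 CPM in male and female pancreas, against 414 and 543 CPM in male and female stomach, and 0 to 3.97 CPM elsewhere. The trypsinogens had ranks 3 and 4 by count in either pancreas library. Male over female, their CPM ratio was 0.642 for Prss2 and 0.761 for Try5 in stomach, against 1.28 and 1.09 in pancreas. Several trypsinogen genes of the mouse are near-identical copies and had no cluster of their own here, so the split of counts among trypsinogens is uncertain.

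Cela2a, a proelastase, had 48296 and 46477 CPM in male and female pancreas, against 748 and 416 CPM in male and female stomach, and 0 to 2.98 CPM elsewhere. Cela1, the other proelastase, had 9506 and 10909 CPM in male and female pancreas, against 265 and 154 CPM in male and female stomach. Its other libraries ran from 0 to 12.1 CPM. Cela2a was thus several times more abundant than Cela1 in either pancreas library, and Cela1 was the 1 gene of the 8 with the lower CPM in male pancreas.

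Cpa1, procarboxypeptidase A1, had 20471 and 19547 CPM in male and female pancreas, against 279 and 176 CPM in male and female stomach, and 0 to 1.91 CPM elsewhere. Cpb1, procarboxypeptidase B1, had 11623 and 10538 CPM in male and female pancreas, against 252 and 90.1 CPM in male and female stomach, and 0 to 1.43 CPM elsewhere. Male over female pancreas the ratio of CPM was 1.05 for Cpa1 and 1.10 for Cpb1, whereas in stomach it was 1.58 for Cpa1 and 2.80 for Cpb1, the widest of the 8. The highest levels of both carboxypeptidases outside pancreas and stomach were below those of the other 6 genes.

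**Figure D1:**
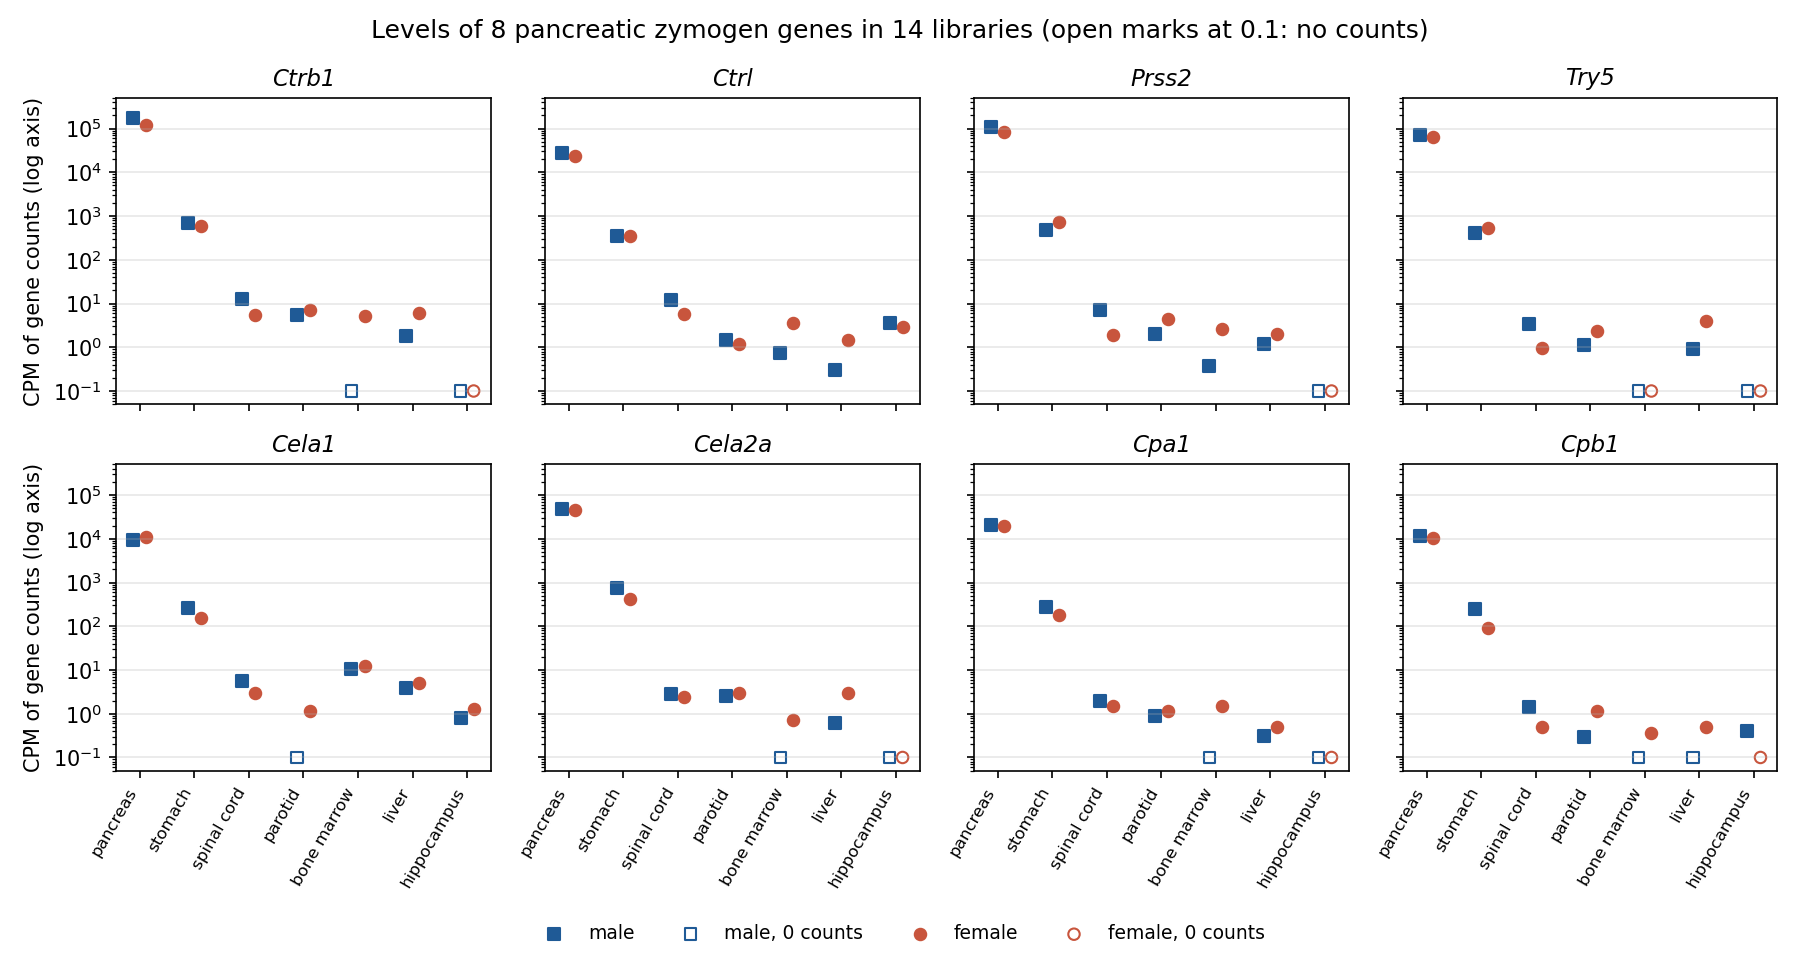
Level of each of the 8 genes in CPM of gene counts on a log axis, by tissue, with male libraries as squares, female libraries as circles, and open marks placed at 0.1 where a library had no counts. For every gene the pancreas libraries stand highest and the stomach libraries next, with the other 10 libraries at 12.4 CPM or below.

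All 8 genes were called higher in pancreas than in the mean of the other 6 tissues (edgeR quasi-likelihood test, adjusted p from 2.82e-14 to 2.18e-12), where 6.33% of 14682 genes tested were called higher. Genes with a p under 0.05 after Benjamini-Hochberg adjustment and at least a 2-fold difference count as called, and 3.24% were called lower. For genes with counts in each tissue the fitted log2 difference was 13.87 ± 0.40 for Cela1, 15.23 ± 0.46 for Ctrl and 16.32 ± 0.47 for Cpb1 (SE, 2 libraries a tissue). Cpb1 had a single count in each of bone marrow, liver and hippocampus, and with libraries under 3 counts set to 3 its difference was 15.07. Without the female parotid library the fitted difference of Cela1 was 14.67. Parotid gland was then 1 library at 0 counts, so that value is no size. The other 5 genes had a tissue with no counts at all, so their size is given as a bound against the floor of 3 counts per library. Against hippocampus, where both libraries were at 0, the mean pancreas CPM, on library totals, was at least 119331-fold higher for Ctrb1, 79603-fold for Prss2, 55576-fold for Try5, 38678-fold for Cela2a and 16332-fold for Cpa1. The size of these differences depends on the scaling. With libraries under 3 counts set to 3, the median log2 difference of the 8 genes was 16.07 with TMM factors and 13.03 with library totals, beside 0.82 and -2.22 for all genes tested. In all, 930 genes were called higher and 476 lower in pancreas with TMM factors, against 193 higher and 10433 lower with library totals, and the 8 were among those higher either way.

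In stomach, too, all 8 genes were called higher than in the mean of the 5 tissues other than pancreas, where 17.9% of the genes tested were called higher (edgeR, adjusted p from 1.35e-10 to 1.80e-08). The fitted log2 difference was 6.30 ± 0.40 for Cela1 and 7.28 ± 0.44 for Ctrl. Leaving out a library gave 5.96 to 7.27 for Cela1. The highest came without the female parotid library, where parotid gland was at 0 counts, so that value is no size. With the same floor the median of the 8 genes was 7.58, beside -0.18 for all genes tested. In bulk RNA, fewer cells of a type and less RNA per cell cannot be told apart. Whether the stomach samples held pancreatic tissue was not tested. The amylase gene Amy2a stood at 998 and 2136 CPM in male and female stomach. Of the 5 tested islet markers 3 were called higher in stomach, among them Sst, somatostatin, at 170 to 230 CPM and Gcg, glucagon, at 2.60 to 6.93 CPM. In pancreas Sst stood at 1.51 to 2.89 CPM and Gcg at 53.2 to 138 CPM. Iapp was not called in stomach, and G6pc2 had 0 counts there. The 7 islet markers summed to 242 and 187 CPM in male and female stomach, against 147 and 225 CPM in male and female pancreas. Most of the stomach sum was Sst.

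The level in stomach was a small share of that in pancreas, and the share was not the same for the 8 genes. Its size depends on the scaling: it is given here by CPM, and with TMM factors it was 0.0443% for Ctrb1 and 0.300% for Cela1 in the male. In the male it was lowest for Ctrb1 at 0.412% of the pancreas CPM and Prss2 at 0.432%, and highest for Cpb1 at 2.17% and Cela1 at 2.79%. In the female it was lowest for Ctrb1 at 0.504% and highest for Cela1 at 1.41% and Ctrl at 1.51%. The 8 genes therefore had another make-up in stomach than in pancreas. Ctrb1 gave 20.3% and 19.7% of their summed counts in male and female stomach, against 36.6% and 31.5% in male and female pancreas. Ctrl gave 10.1% and 11.5% in male and female stomach, against 5.81% and 6.11% in male and female pancreas.

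Set against Ctrb1 alone, the counts of Ctrl were 33.2% of the pair in male stomach (exact interval 31.1% to 35.2%) and 36.8% in female stomach (34.8% to 38.8%). In pancreas they were 13.7% in the male (13.6% to 13.8%) and 16.2% in the female (16.1% to 16.4%). The counts of Cela1 were 27.2% and 20.3% of its pair with Ctrb1 in male and female stomach, against 5.23% and 8.32% in male and female pancreas. For Ctrl and Cela1 the stomach share lay above the pancreas share in both sexes by more than counting error. The same held for Try5, Cela2a, Cpa1 and Cpb1, and all of these shares are set against Ctrb1. For Prss2 it held in the female only, at 54.9% in stomach and 41.6% in pancreas. Cela2a was at 51.4% and 40.7% in male and female stomach, against 21.9% and 27.9% in male and female pancreas. Prss2 in the male was at 40.0% in stomach (38.0% to 42.1%) and 38.9% in pancreas. The stomach counts of Prss2 include a variant tag, G19T, with 91 counts in the male and 331 in the female. On leading tags alone, male stomach had 796 counts of Prss2 and 1305 of Ctrb1, against 278313 and 444247 in male pancreas. By these tags the male share of Prss2 was not higher in stomach. No test across libraries was made of these shares. The trypsinogens were uneven between the stomach libraries, with Prss2 at 13.5% of the summed counts in the male and 24.0% in the female, against 23.3% and 22.4% in male and female pancreas.

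**Figure D2:**
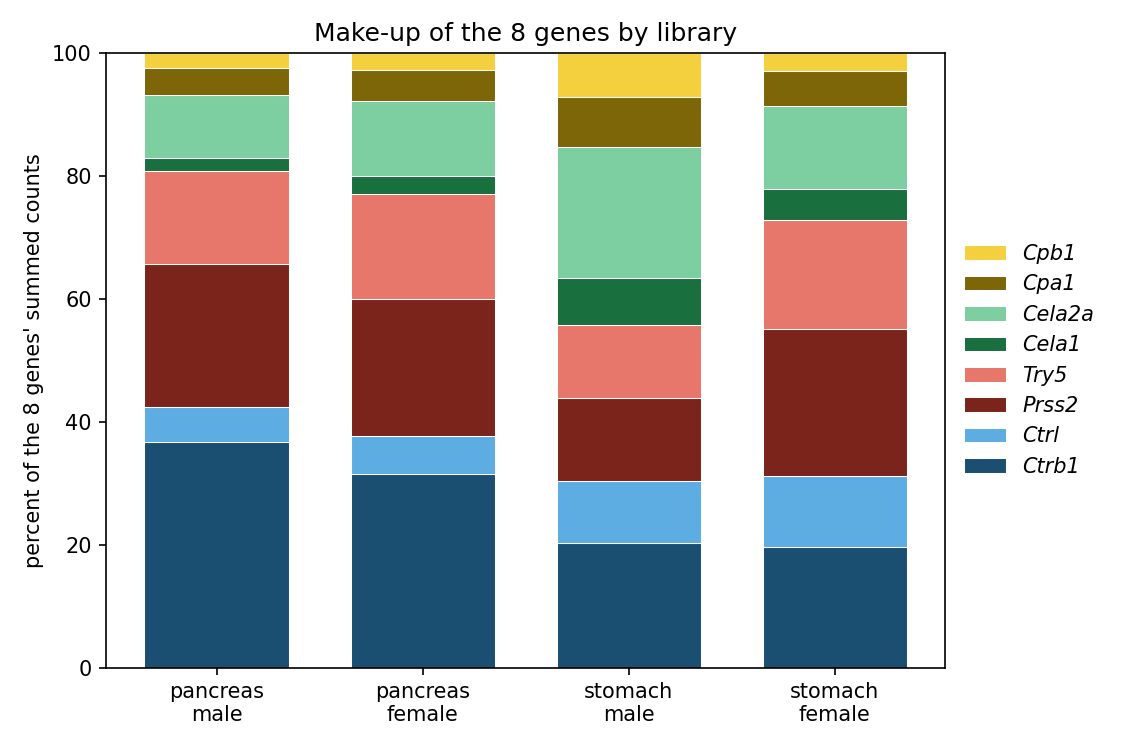
Share of each gene in the summed counts of the 8 genes, in percent, for the male and female pancreas libraries and the male and female stomach libraries. Ctrb1 makes up 36.6% and 31.5% of male and female pancreas and 20.3% and 19.7% of male and female stomach.

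**Figure D3:**
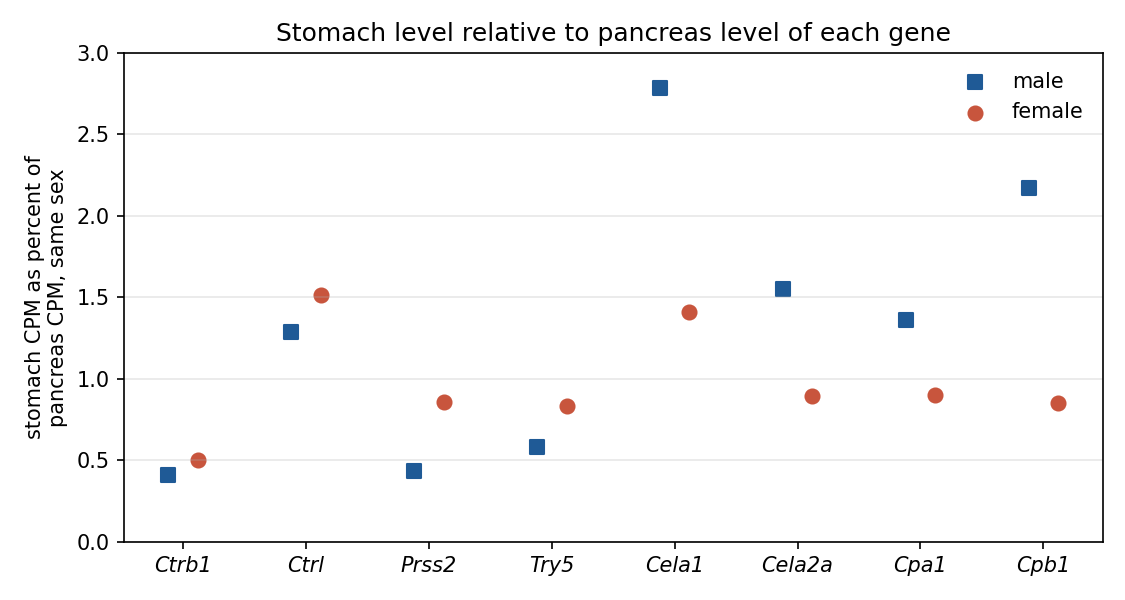
Stomach CPM as a percent of the pancreas CPM of the same sex for each of the 8 genes, with squares for male and circles for female. Values run from 0.412% for Ctrb1 in the male to 2.79% for Cela1 in the male, and the male lies below the female for Ctrb1, Ctrl, Prss2 and Try5 and above it for the other 4 genes.

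Outside pancreas and stomach the levels were near the limit of the counts: 3 counts correspond to 0.867 to 1.49 CPM in these libraries. The tissues were not equally low for each gene. Cela1 had 10.3 and 12.1 CPM in male and female bone marrow, from 28 and 33 counts, and these values overlapped with those of no other tissue. In the same libraries Ctrb1 had 0 and 14 counts and Cela2a had 0 and 2. Bone marrow is rich in neutrophil precursors, which make an elastase of another gene, Elane, and Elane stood at 745 ± 144 CPM there (SD, n = 2) and at 0 counts in pancreas. The leading tag of Cela1 supplied 26 of its 28 counts in male and 31 of its 33 counts in female bone marrow.

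In liver, by contrast, Cela1 was counted through another tag. Its 3.93 and 4.96 CPM in male and female liver came from 13 and 10 counts, of which the leading tag gave 1 and 2. The following tag gave 8 and 5 of them, and it is shown because it held 107 of 25207 counts in male pancreas and 220 of 30175 in female pancreas, a small part of the gene there.
Cela1, second tag: GATCttgggaagttttccct
The counts are few, and which transcript form carries this site was not determined.

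In the nervous tissues Ctrl was counted about as often as Ctrb1 or more. It had 11.95 and 5.86 CPM in male and female spinal cord, from 25 and 12 counts, beside 12.4 and 5.37 CPM for Ctrb1. Ctrl was thus 49.0% of the pair in male spinal cord (exact interval 34.8% to 63.4%) and 52.2% in female spinal cord (30.6% to 73.2%), against 13.7% and 16.2% in male and female pancreas. The spinal cord intervals overlap with those of stomach given above and with that of female bone marrow, where the share was 41.7% (22.1% to 63.4%). In hippocampus Ctrl had 9 and 7 counts in male and female, or 3.56 and 2.95 CPM, while Ctrb1, Prss2, Try5, Cela2a and Cpa1 had none in either library. A count of 0 allows up to 1.19 CPM in male and 1.26 CPM in female hippocampus. Leaving out the leading tags of the 8 genes themselves, no tag 1 base away from one of them had more than 2 counts in any of these 10 libraries.

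Ordered by mean level, pancreas came first and stomach second for each gene, with no overlap between them or with the next tissue. Below that, neighbouring tissues mostly overlapped. Next came spinal cord for Ctrb1, Ctrl, Prss2, Cpa1 and Cpb1, bone marrow for Cela1, liver for Try5 and parotid gland for Cela2a. This tissue was clear of the one below it for Ctrl, Cela1 and Cpa1, and overlapped with it for the other 5 genes.

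The parotid gland is the other exocrine gland of the series, and its acinar cells secrete amylase. The 8 genes summed to 13.9 and 21.3 CPM in male and female parotid gland. None of the 8 was called higher or lower there than in the mean of the 5 tissues other than pancreas, where 11.9% of the genes tested were called higher and 6.18% lower (edgeR, smallest adjusted p 0.0624, for Cela1). These 5 tissues include stomach, where the mean levels of the 8 genes ran from 171 CPM for Cpb1 to 657 CPM for Ctrb1. The contrast therefore does not set parotid gland against the low tissues alone. At an unadjusted p under 0.05 there were 2, Cela1 with a log2 difference of -2.32 ± 0.84 and Cela2a with 1.69 ± 0.76. Cela2a had 0 counts in hippocampus, and with libraries under 3 counts set to 3 its difference was 0.66. DESeq2 and limma voom each called Cela1 lower, at log2 -2.41 and -2.91 and adjusted p of 0.0210 and 0.00768. With library totals 583 genes were called higher and 7308 lower in parotid gland, against 1747 and 907 with TMM factors, and Ctrl and Cela1 were then among those lower. Cela1 had 0 counts in male and 4 in female parotid gland, so that these calls rest on very few counts. With libraries under 3 counts set to 3 its log2 difference was -1.58. Leaving out the female or the male stomach library made Cela1 called lower at log2 -2.40 and -2.27. Leaving out female bone marrow made Ctrb1 called higher at 2.86. Bone marrow and hippocampus were then both at 0 counts for Ctrb1, so that value is no size. With all libraries and those under 3 counts set to 3 its log2 difference was 1.03. Without the female parotid library Cela1 was also called lower, but parotid gland was then 1 library at 0 counts and the fitted value is no size.

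Male and female pancreas were compared to ask whether the sexes differed in these enzymes. By CPM, 7 of the 8 genes were higher in the male, from 1.04-fold for Cela2a to 1.43-fold for Ctrb1, and Cela1 was at 0.871 of the female level. None was called (edgeR, adjusted p of 1 for each, 0.0% of genes called higher and 0.0% lower). With a single library per sex the spread was taken from the male and female pairs of the other 6 tissues. The log2 difference was 0.84 ± 1.18 for Ctrb1, 0.67 ± 1.01 for Prss2 and 0.39 ± 0.81 for Cpa1, so an interval of 2 SE reached from -1.53 to 3.20 for Ctrb1. For Cela1 the sign depended on the scaling, at 0.12 with TMM factors and -0.20 with library totals. Across all genes 405 had an unadjusted p under 0.05, none of them among the 8, and DESeq2 called 2 genes and limma voom 3.

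The sex difference in pancreas was also set against the mean sex difference of the other tissues. None of the 8 genes was called (edgeR, adjusted p of 1 for each), where 0.00681% of genes were called higher and 0.0% lower. At an unadjusted p under 0.05 there were 427 genes and none of the 8, and DESeq2 and limma voom called 2 genes each.

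The close pair of trypsinogen tags called for a look at tags that differ from a leading tag at 1 base. The position at which Prss2 and Try5 differ is written in capitals.
Prss2: gatctgtgttggcttcctGg
Try5: gatctgtgttggcttcctAg
variant with C: gatctgtgttggcttcctCg
variant with T: gatctgtgttggcttcctTg
The variant G19T carries code 4 and is summed into Prss2, whereas the variant G19C is assigned to no gene. In pancreas these variants were small against the Prss2 tag. The T variant had 6037 and 6311 counts in male and female pancreas, or 2.17% and 2.78% of the Prss2 tag, and the C variant had 7804 and 6377 counts, or 2.80% and 2.81%. In stomach the libraries parted. The T variant had 91 and 331 counts in male and female stomach, or 11.4% and 24.7% of the Prss2 tag, and the C variant had 2 and 363 counts, or 0.251% and 27.1%.

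Such tags were more frequent in female stomach along the whole tag and most of all near its 3′ end, and not in the trypsinogens alone. Counted together with the leading tag and leaving out the leading tags of the 8 genes, tags that differed at position 19 were 34.1% of the Prss2 family in female stomach (exact interval 32.1% to 36.2%), against 5.30% in female pancreas (5.21% to 5.39%). These tags, 694 counts in female stomach, are 1 base away from the Try5 leading tag as well. They cannot be divided between the trypsinogens, and they enter the median over positions 18 to 20 below for both. For Cela2a the share was 12.6% in female stomach and 2.84% in female pancreas, and for Ctrl 8.96% and 1.12%. Cela1 had no such tag in female stomach beside the 350 counts of its leading tag. Over positions 18 to 20 the median share of the 8 genes was 13.7% in female stomach, 1.81% in male stomach, 3.06% in male pancreas and 2.72% in female pancreas. Over positions 5 to 17 it was 4.03%, 1.12%, 2.25% and 1.92% in the same libraries. The leading tag of Prss2 gave 796 of 909 counts in male and 1339 of 1700 counts in female stomach, with the T variant next to it. The call of Prss2 in stomach also held on its most abundant tag alone, and without the female stomach library.

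**Figure D4:**
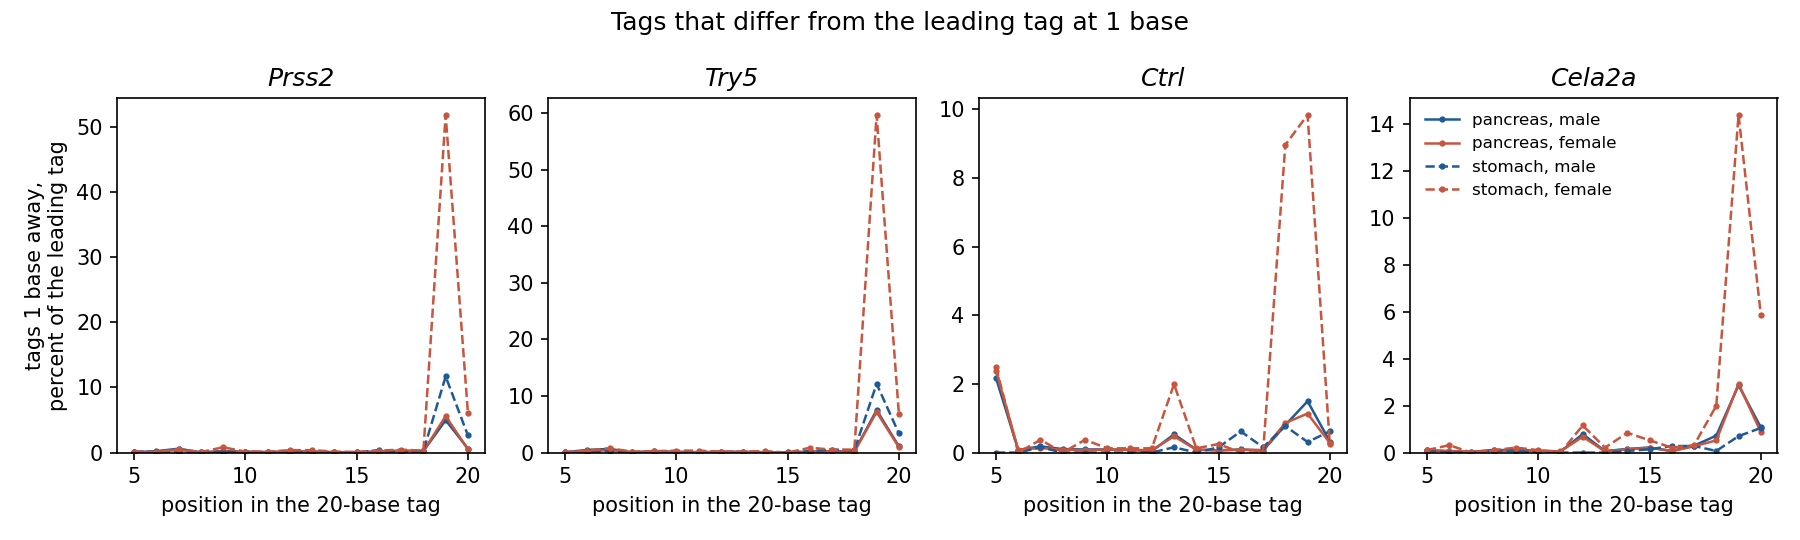
Tags 1 base away from the leading tag, as a percent of the leading tag, by position 5 to 20 of the tag, for Prss2, Try5, Ctrl and Cela2a, with solid lines for pancreas, dashed lines for stomach, blue for male and red for female. At position 19 the female stomach line reaches 51.8% for Prss2 and 59.7% for Try5, against 4.97% and 7.51% in male pancreas and 5.60% and 7.18% in female pancreas. At this position the Prss2 and Try5 panels show the same tags, each time set against another leading tag.

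Genes of the same families that were not among the 8 gave a similar picture. Of 13 related zymogen names 5 had a cluster here. Their 6 clusters were all called higher in pancreas, beside 6.33% of all genes (median floored log2 difference 12.55, beside 0.82 for all genes tested). The trypsinogen 2210010C04Rik had 33770 ± 3021 CPM in pancreas and 327 CPM on average in stomach, and the tissue kallikrein Klk1 had 7341 ± 317 CPM in pancreas (SD, n = 2). The proelastase Cela3b had 4871 ± 577 CPM in pancreas and was uneven in stomach, at 5.42% of the pancreas level in the male and 0.670% in the female. In stomach 4 of the 6 clusters were called higher, beside 17.9% of all genes. Klk1 was not limited to pancreas, with 2931 CPM in male parotid gland.

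The other secreted enzymes and granule proteins of the acinar cell went the same way in pancreas. There 11 of 11 were called higher, beside 6.33% of all genes (median 14.81). Amy2a, pancreatic amylase, had 246815 and 343489 CPM in male and female pancreas, Pnlip, pancreatic lipase, had 35979 ± 3220 CPM and Rnase1, a ribonuclease, had 18561 ± 2053 CPM. All 11 were also called higher in stomach, beside 17.9% of all genes (median 6.46, beside -0.18 for all genes). Clps, colipase, had 33606 ± 2130 CPM in pancreas and 83888 CPM on average in stomach, a pancreas over stomach ratio of 0.401 by CPM that turned to 3.16 with TMM factors. The phospholipase Pla2g1b, chosen after its values were seen, had 594 CPM in pancreas and 19826 CPM in stomach on average, a ratio of 0.0300 by CPM and 0.244 with TMM factors. For the 8 proteases the lowest ratio within a sex, that of Cela1 in the male, was 35.9 by CPM and 333 with TMM factors.

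**Figure D5:**
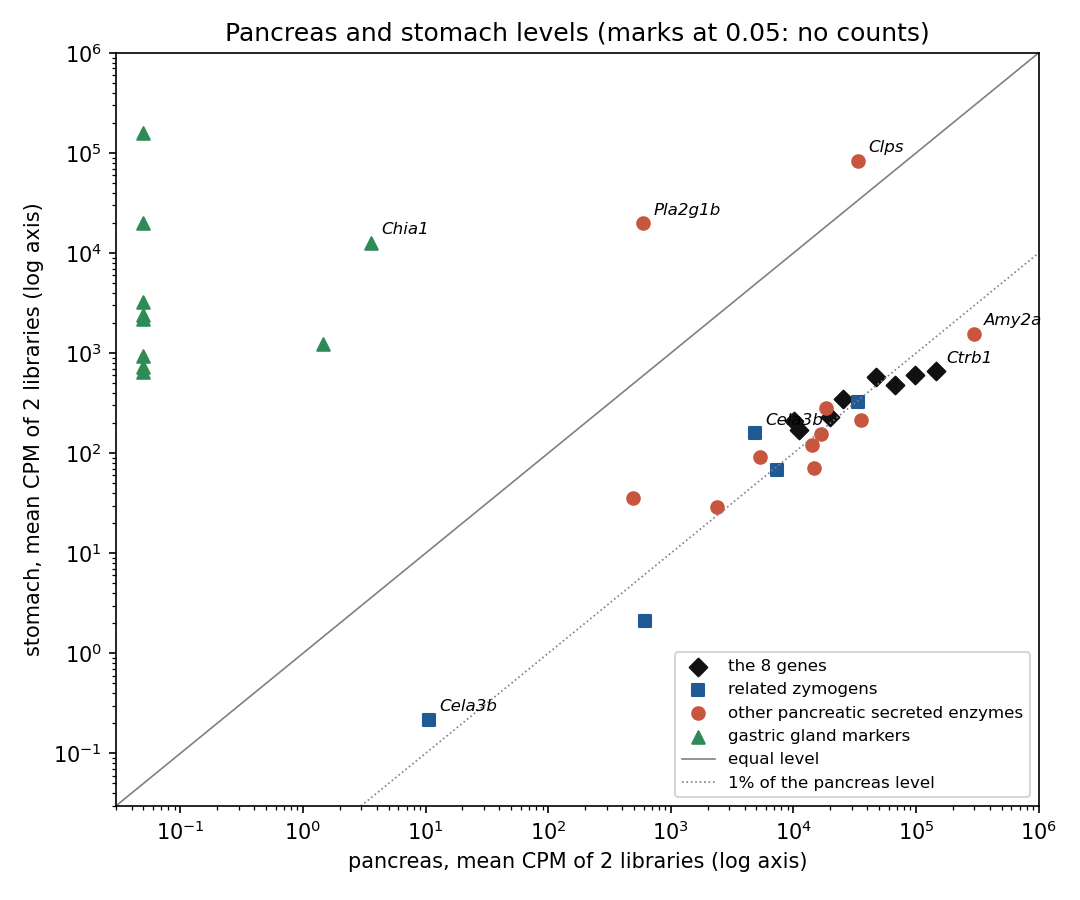
Mean stomach CPM against mean pancreas CPM on log axes, 2 libraries each, for the 8 genes as diamonds, 5 of the 6 clusters of related zymogens as squares, other secreted enzymes as circles and gastric gland markers as triangles, with marks at 0.05 where a tissue had no counts. The 8 genes lie near the dotted line of 1% of the pancreas level, Clps and Pla2g1b lie above the line of equal level (by CPM; with TMM factors the Clps ratio turns to 3.16 in favour of pancreas), and 8 gastric markers have no counts in pancreas.

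Inhibitors that guard against early activation were present at lower levels. Of 6 tested genes of protease inhibitors and activators, 3 were called higher in pancreas, beside 6.33% of all genes (median 2.37, beside 0.82 for all genes). Spink1, which inhibits trypsin inside the acinar cell, had 867 ± 92.7 CPM in pancreas, and the pancreatic serpin Serpini2 had 123 ± 8.39 CPM. Itih4, a plasma protein of the liver, was called on 0.723 and 5.66 CPM, and Serping1, the complement inhibitor, had 5.17 ± 0.154 CPM in pancreas and did not pass the test. Of the acinar transcription factors 4 of 6 were tested and all 4 were called higher in pancreas, beside 6.33% of all genes (median 5.05). Xbp1, a regulator of secretory capacity, had 269 ± 17.2 CPM in pancreas and 347 ± 243 CPM in stomach. Bhlha15, known as Mist1, had 47.0 ± 13.7 CPM in pancreas and 109.5 ± 8.55 CPM in parotid gland. By mean CPM neither was highest in pancreas. Rbpjl, a subunit of the PTF1 complex whose cluster is titled matrilin 4, had 46.2 ± 11.9 CPM in pancreas and 3.47 to 4.16 CPM in stomach. Gata4 was called on 2.01 ± 1.25 CPM in pancreas and had 46.1 ± 7.11 CPM in stomach. With library totals the median of the inhibitor list was -0.67 and that of the factors 2.01, beside -2.22 for all genes.

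Proteases of the same enzyme classes known from other cells were counted too. Of 9 tested metallocarboxypeptidases 1 was called higher in pancreas, beside 6.33% of all genes (median 1.07, beside 0.82), and 5 were called higher in stomach, beside 17.9% of all genes. It was Cpn1, the plasma carboxypeptidase N, with 13.8 ± 2.46 CPM in pancreas and 219 ± 65.7 CPM in liver. Cpe, which trims peptide hormones, was highest in hippocampus at 1885 ± 26.4 CPM, Cpb2 of plasma in liver at 308 ± 95.2 CPM and Cpd in spinal cord at 165 ± 3.68 CPM. Of 15 tested serine proteases 1 was called higher in pancreas, near the 6.33% of all genes (median 1.28, beside 0.82), the membrane protease Prss8 at 9.04 CPM. In stomach 6 of them were called higher and 1 lower, beside 17.9% and 5.6% of all genes. Haptoglobin, Hp, a protease relative without activity, prothrombin, F2, and plasminogen, Plg, were highest in liver, at 2154 ± 606, 1989 ± 696 and 871 ± 345 CPM, and had 3.02 CPM or less in pancreas.

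The genes most like the 8 across libraries were sought among 119 other genes with a mean of at least 100 CPM in pancreas. Likeness was Pearson's r between log2(CPM + 1) of the gene and the log2 of the summed CPM of the 8 plus 1, over 14 libraries. The highest were Pnliprp1 (0.995), Cel (0.992), Zg16 (0.992), Dmbt1 (0.991), Pnliprp2 (0.990), 2210010C04Rik (0.989), Sycn (0.989) and Reg1 (0.988). Pnliprp1, Pnliprp2 and Cel are lipases, Zg16 and Sycn are zymogen granule proteins, and Reg1 is a secreted lectin of the acinar cell. The members themselves had r of 0.977, for Cela1, to 0.998, for Prss2, but with a sum that contains each of them. The 14 points fall into the pancreas libraries, the stomach libraries and the rest, and the compared genes share libraries and depth, so the values are a description.

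The sequence around the start of the 8 genes was read for motifs known from acinar genes. RefSeq promoters of build GRCm38.p6, from 250 bases before to 50 bases after the start, matched 7 of the 8 genes. Both strands were searched for 4 motifs. The first was TATAAA, found in many core promoters. The next were CACCTG, an E-box of the kind bound by the PTF1 complex, and TTTCCC, the other part of a PTF1 site. The last was GATAAG, recognised by zinc finger factors such as Gata4. Cela1 is shown because it held each of these motifs, Prss2 because it held 3 of them and Ctrb1 because it was the most counted of the 8. Capitals mark the matches on either strand.
Cela1, chr15:100687871-100688170, minus strand: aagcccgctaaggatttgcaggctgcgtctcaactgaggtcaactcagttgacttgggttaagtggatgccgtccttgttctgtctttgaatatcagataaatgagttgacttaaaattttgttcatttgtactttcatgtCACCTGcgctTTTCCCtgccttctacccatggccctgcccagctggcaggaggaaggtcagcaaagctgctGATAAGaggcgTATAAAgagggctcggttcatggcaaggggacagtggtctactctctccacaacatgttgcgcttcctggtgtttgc
Prss2, chr6:41521526-41521825, plus strand: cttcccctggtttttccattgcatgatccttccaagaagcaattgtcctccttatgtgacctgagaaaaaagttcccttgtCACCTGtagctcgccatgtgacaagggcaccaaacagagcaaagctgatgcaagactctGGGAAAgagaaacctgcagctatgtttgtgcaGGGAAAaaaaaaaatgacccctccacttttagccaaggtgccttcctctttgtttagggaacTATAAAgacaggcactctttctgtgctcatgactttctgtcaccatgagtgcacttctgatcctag
Ctrb1, chr8:111690961-111691260, minus strand: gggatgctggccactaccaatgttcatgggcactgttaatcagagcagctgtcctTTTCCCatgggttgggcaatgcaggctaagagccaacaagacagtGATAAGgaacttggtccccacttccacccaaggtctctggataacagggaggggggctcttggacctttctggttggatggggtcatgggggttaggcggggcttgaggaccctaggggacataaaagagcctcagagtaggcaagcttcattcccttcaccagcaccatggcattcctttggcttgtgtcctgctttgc
CACCTG was found in 5 of the 7 promoters, beside 20.2% of 32851 promoters, and TTTCCC in 5 of the 7, beside 25.2%. TATAAA was found in 3 of the 7, beside 13.6%, and GATAAG in 3 of the 7, beside 7.44%. The E-box and the other part of the PTF1 site lay within 20 bases of each other in 1 of the 7, Cela1, beside 0.852% of promoters. Cela1 carried TATAAA 27 bases and GATAAG 38 bases before its start. The TATAAA of Prss2 lay 16 bases before its start, and that of Cpb1 lay 35 bases after its start. A match is a string of letters in this window and says nothing of binding, and the motifs were chosen with the genes known.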

How the data were processed

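The deposited values are counts of 20-base signatures in 14 libraries: per the labels, cDNA was cut with DpnII and a signature was captured with MmeI and sequenced. For the assignment method, the meaning of its codes and the genome build, nothing is given in the sources used here. Codes 1 to 4 were taken as forward and 11 to 16 as reverse tags. Counts of codes 1 to 4 were summed per transcript cluster, 22221 in all, of which 13898 had a symbol by accession, title or a hand-written title list. Total counts per library were 2194028 to 3834568. With edgeR 4.0.16 in R 4.3.3, 14682 genes passing filterByExpr were fitted with tissue and sex terms (6 residual degrees of freedom), or with a separate sex term for pancreas (5). An SE is the log2 difference over the root of F. Shares of single libraries have exact Clopper-Pearson intervals. Alternatives were library totals, DESeq2 1.42.0 with its size factors, limma 3.58.1 voom, no low-count filter, the most abundant tag, no sex term and leaving out each library. The fits were also run on simulated counts, in which most genes had the same expected share in each tissue. That run does not cover tissues with no counts or TMM factors as uneven as these.

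The 8 genes, the gene lists and the tests were chosen with earlier results of these data known. Named beside the 8 are up to 4 tested genes of each list by pancreas CPM (for lists of other cells, by CPM in any tissue) and the 8 genes of highest likeness. A gene that this rule names is not reported here. Other genes were named after their values were seen. Medians called floored set libraries of fewer than 3 counts to 3.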

Additional observations from a re-analysis of the deposited data

Results flagged for a closer look

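Tags with codes 11 to 16, read here as the reverse strand of a transcript, enter no level above, and all 8 genes had such tags in pancreas. Over the male and female pancreas libraries they summed to 12404 counts for Ctrb1, 6064 for Ctrl, 16957 for Prss2, 7312 for Try5, 1806 for Cela1, 16531 for Cela2a, 4447 for Cpa1 and 2537 for Cpb1. As a share of forward and reverse counts they ran from 1.45% (Ctrb1) to 5.92% (Cela2a) in male and from 1.69% (Ctrb1) to 6.19% (Cela2a) in female pancreas. Cela1 was the gene with the widest gap between the sexes, at 1.96% in the male (exact interval 1.80% to 2.14%) and 4.13% in the female (3.92% to 4.36%). What made these tags was not tested.

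A tag of code 22 assigned to the Cela2a cluster was counted more in stomach than in pancreas, with 319 and 867 counts in male and female stomach, 1186 together, against 44 and 52 in male and female pancreas. It is shown with the leading tag of the colipase gene Clps, from which it differs by G19T, with position 19 in capitals.
Clps leading tag: gatcacgcagttagctggGt
Cela2a cluster, code 22: gatcacgcagttagctggTt
The Clps tag had 140196 and 207082 counts in male and female stomach, so that the code 22 tag came to 0.228% and 0.419% of it. In male and female pancreas it came to 0.0542% and 0.0556%. The levels of Cela2a given above do not include it.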

How the results depend on the processing

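All 8 genes remained called higher in pancreas and in stomach under each of 21 alternatives (largest adjusted p 9.18e-09 and 1.10e-06). The parotid count of called members was 2 with library totals, 1 with DESeq2, 1 with limma voom, 2 without the low-count filter, 1 without the sex term and 0 to 1 when a library was left out, against 0 in the fit reported. Without the female bone marrow library Ctrb1 was called higher at 2.86, which is no size, since bone marrow and hippocampus were then at 0 counts. Without the female parotid library Cela1 was called lower against 1 library at 0 counts, so its fitted value of -7.26 is no size. The log2 pancreas over stomach ratio of Clps was -1.32 by CPM and 1.66 with TMM factors, a setting chosen after seeing the data. In the parotid contrast Cpa1 and Cpb1 turned to -0.44 and -0.56 with library totals, and Cpb1 ran from -0.79 to 1.93 when a library was left out; neither was called. Cela1 between male and female pancreas turned to -0.20 with library totals. The pancreas share of the 8 genes was 38.2% to 47.0% when a library was left out and 38.9% of all counts. Over all genes, calls in pancreas were 1406, against 10626 with library totals, 3476 with limma voom, 572 and 606 without the female or male pancreas library and 2208 without the female stomach library. In parotid gland they were 2654, against 7891 with library totals, 1288 without the female and 1242 without the male parotid library. In stomach they were 3455, against 5247 without the female stomach library. Between male and female pancreas there were 0, against 1 with library totals, 2 with DESeq2, 3 with limma voom, 5 without the low-count filter and 10 and 12 without the male or female stomach library. For the sex difference set against other tissues there was 1, against 4 without the low-count filter, 0 on the most abundant tag and 6 without the male or the female stomach library. The causes were not tested. Leaving out a pancreas library left no sex difference to fit, so that comparison has no such value. Outside pancreas and stomach, depth limits what can be said: most values rest on fewer than 30 counts.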
